A study of Mus musculus with 9 samples.

Results

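The MHC class I presentation genes are 10 of the 13795 gene symbols of a table of mouse heart RNA sequencing, taken by symbol from a list drawn up with earlier results of these data known: B2m, H2-K1, H2-D1, H2-T23, Tap1, Tap2, Tapbp, Psmb8, Psmb9 and Nlrc5. All 10 were in the table, and all 10 were among the 13788 genes tested. The hearts were from C57BL/6 mice, 5 samples given oxaliplatin at 10 mg/kg and 4 samples given vehicle, sequenced from total RNA after 8 weeks of treatment. Oxaliplatin is a platinum drug used in chemotherapy, and the study asked how it alters gene expression in the heart. All hearts were kept in RNALater, and libraries of both groups were made with a Clontech SMARTer kit from RNA that met an integrity threshold of 8. Whether each sample came from its own animal is not said in the labels, and p-values here weigh group differences against sample spread that may be technical only.

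MHC class I molecules show peptides from inside the cell to CD8 T cells and to natural killer cells. The proteasome, in part through the immunoproteasome subunits that interferon induces, cuts proteins into peptides. The TAP transporter, with tapasin (Tapbp) beside it, moves the peptides into the endoplasmic reticulum and onto a heavy chain paired with beta-2 microglobulin (B2m). Nlrc5 encodes a transactivator of class I genes that acts through the X and Y boxes of their promoters. Cardiomyocytes are known for low class I at the surface, whereas endothelial cells and leukocytes carry much more.

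The genes for the light chain and the classical heavy chains were higher after oxaliplatin. B2m and the classical heavy chains H2-D1 and H2-K1 rose by 1.77, 1.65 and 1.47-fold, and in none of them did the groups overlap. The transporter, tapasin, immunoproteasome and Nlrc5 genes did not pass the test, and 5 of these 6 had log2 fold changes between -0.02 and 0.08. The exception was the transporter gene Tap1, at 0.57 (limma, adjusted p = 0.0666), against 0.55 for H2-K1. Of the 10 genes, 3 rose, 0 fell and 7 did not pass at an adjusted p under 0.05 in limma. Over all genes tested, 14.3% passed, 9.23% as higher and 5.03% as lower, or 1272 and 694 genes. Rescaling every sample to the same total moved the median log2 fold change of all genes to 0.11 and gave 1633 higher and 269 lower, and quantile normalization gave 1151 higher and 965 lower. Groups did not overlap, with oxaliplatin higher, for 3 of the 10 genes and for 8.99% of all genes tested, and, with oxaliplatin lower, for 0 of the 10 and for 5.93%. A log2 fold change above 0, whatever its p, was seen for 8 of the 10 genes and for 47.7% of all genes tested. The median log2 fold change was 0.17 over the 10 genes and -0.02 over all genes tested.

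The upstream DNA of the heavy and light chain genes is shown because it holds the boxes through which class I genes are known to be regulated. Windows of 250 bases before the RefSeq transcription start were taken on GRCm38.p6, and 8 of the 10 genes had one, all but Tap2 and Nlrc5. GENCODE M21 places some starts further upstream. The H2-D1, Tapbp, Psmb8 and Psmb9 windows lie inside its spans of those genes, and the H2-T23 window does so in part. The windows are chr2:122147437-122147686 on the plus strand for B2m, chr17:34000348-34000597 on the minus strand for H2-K1, chr17:35262844-35263093 on the plus strand for H2-D1, chr17:37269984-37270233 on the plus strand for H2-M3 and chr17:36032702-36032951 on the minus strand for H2-T23. H2-M3, a heavy chain outside the 10 genes, also rose, and H2-T23 did not pass. Each is printed 5′ to 3′, and capitals mark matches to interferon elements and the kappaB consensus on either strand and, where both occur on the printed strand at the spacing given next, TGACG of the X2 box and ATTGG of the Y box.
B2m: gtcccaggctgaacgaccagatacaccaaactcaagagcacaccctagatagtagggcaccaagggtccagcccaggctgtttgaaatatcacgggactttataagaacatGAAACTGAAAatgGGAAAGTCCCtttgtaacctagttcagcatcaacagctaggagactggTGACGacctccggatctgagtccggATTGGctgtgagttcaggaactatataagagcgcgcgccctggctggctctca
H2-K1: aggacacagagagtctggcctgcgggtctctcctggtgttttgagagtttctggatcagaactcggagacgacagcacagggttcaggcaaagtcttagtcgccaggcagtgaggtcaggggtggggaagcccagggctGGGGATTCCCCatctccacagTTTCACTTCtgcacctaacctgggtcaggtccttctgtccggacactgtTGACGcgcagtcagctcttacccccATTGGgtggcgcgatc
H2-D1: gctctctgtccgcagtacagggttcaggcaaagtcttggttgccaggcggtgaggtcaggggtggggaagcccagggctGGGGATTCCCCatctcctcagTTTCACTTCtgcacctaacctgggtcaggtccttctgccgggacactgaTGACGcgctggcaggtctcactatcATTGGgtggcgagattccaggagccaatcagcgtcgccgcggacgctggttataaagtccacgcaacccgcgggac
H2-T23: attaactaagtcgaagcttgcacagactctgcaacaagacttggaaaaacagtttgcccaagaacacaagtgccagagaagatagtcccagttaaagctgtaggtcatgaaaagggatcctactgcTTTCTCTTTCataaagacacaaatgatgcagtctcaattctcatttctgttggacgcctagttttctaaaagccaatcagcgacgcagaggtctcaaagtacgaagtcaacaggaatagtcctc
H2-M3: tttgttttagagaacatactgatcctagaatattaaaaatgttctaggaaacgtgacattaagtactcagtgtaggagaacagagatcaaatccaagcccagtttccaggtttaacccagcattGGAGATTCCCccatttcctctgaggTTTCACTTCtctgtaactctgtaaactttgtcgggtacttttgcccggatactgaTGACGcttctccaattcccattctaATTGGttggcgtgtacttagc

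B2m, H2-K1, H2-D1 and H2-M3 each held TGACG followed 20 bases later by ATTGG. The spacing of 19 or 20 bases was set after reading these class I windows, so its presence in them is a description. It was found on the printed strand in 21 of 27025 mouse promoters, or 0.0777%, and in 15 of the 10072 promoters of genes tested here, or 0.149%. Of those 15 tested genes, B2m, H2-D1, H2-K1 and H2-M3 were the ones that rose. Their windows were read to set the spacing, so their rise is no test of it. Among all genes tested, 9.23% rose and 5.03% fell. Nfe2l1, which encodes a regulator of proteasome genes, held it and fell, with 3586 ± 242 normalized counts after oxaliplatin and 5416 ± 716 with vehicle (SD, n = 5 and 4), a log2 fold change of -0.59 (limma, adjusted p = 0.00503). H2-Q7 also held it, at 19 bases, together with an interferon element and the kappaB consensus. H2-Q7 did not pass, its log2 fold change being 0.19 (adjusted p = 0.684 in limma). The other 9 tested genes with the spaced pair did not pass.

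Interferon elements were searched on both strands in a short form, GAANNGAAA, and a long form, GAAA and GAAA with any 2 bases between. The short form occurred in 6.34% of all promoters, in 5.12% of those of tested genes, and was found in H2-K1 and H2-D1 of the 10 genes. The long form occurred in 3.04% of all promoters, in 2.57% of those of tested genes, and was found in B2m and H2-T23. The kappaB consensus occurred in 7.01% of all promoters, in 8.52% of those of tested genes, and was found in B2m, H2-K1 and H2-D1, in each case close beside the interferon element. The other heavy chains H2-Q6, H2-T22 and H2-Q4 held an interferon element and the kappaB consensus without the spaced pair. H2-Q6 and H2-T22 rose, and H2-Q4 did not pass (limma, adjusted p = 0.480). The class II gene H2-Aa held the kappaB consensus and fell. Singly, TGACG occurred in 17.9% and ATTGG in 34.5% of all promoters, and in 27.0% and 36.6% of those of tested genes. The Tap1 and Psmb9 windows, which overlap because these neighbouring genes start back to back, and the Psmb8 and Tapbp windows held none of the interferon elements, the kappaB consensus or the spaced pair.

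**Figure D1:**
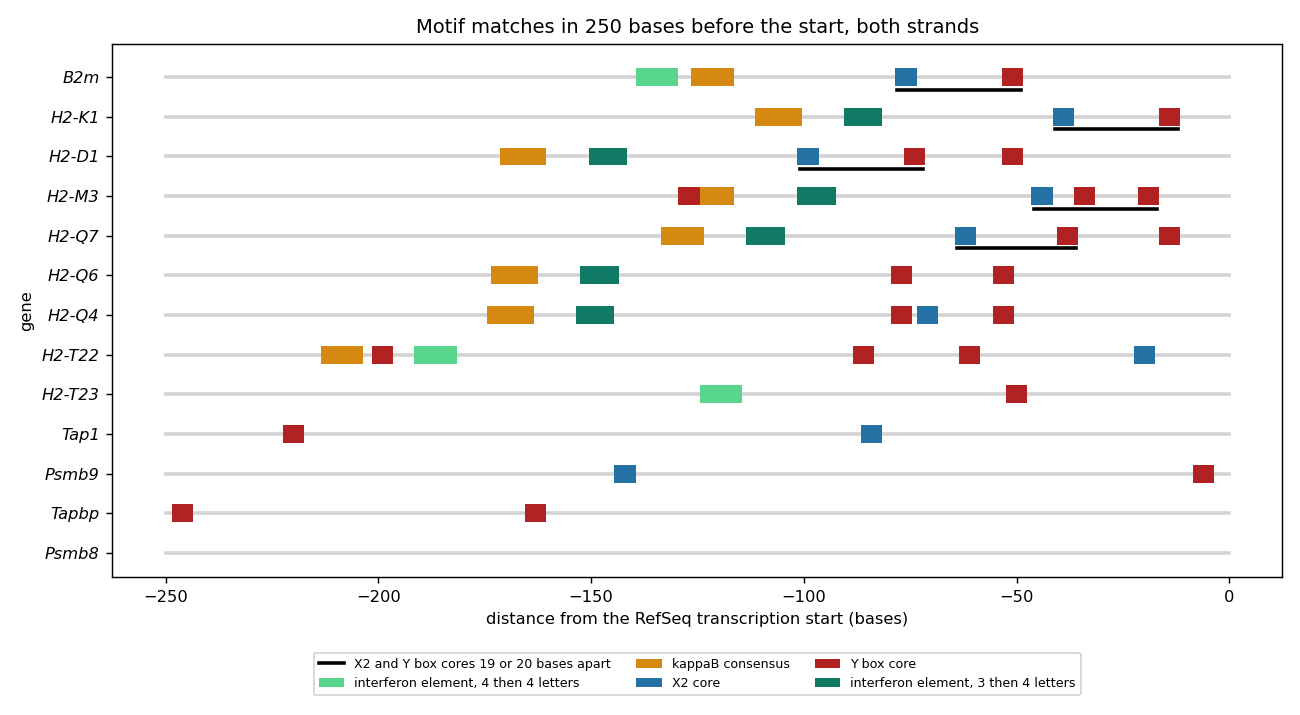
Matches in the 250 bases before the start of class I pathway and comparison genes, with distance from the start in bases on the x axis, 1 line per gene and 1 colour per motif. B2m, H2-K1, H2-D1, H2-M3 and H2-Q7 hold an interferon element, the kappaB consensus and the spaced TGACG and ATTGG in that window. Of these, H2-Q7 did not pass the test. Tap1 and Psmb8 hold no interferon element.

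B2m encodes the light chain that every class I heavy chain needs to reach the cell surface. It lies at chr2:122147686-122153083 on GRCm38 (GENCODE M21), and none of the 50-base windows of its longest coding transcript occurs in another gene. B2m had 9511, 10916, 11754, 9004 and 9689 normalized counts in the oxaliplatin samples, against 6751, 4734, 6158 and 5421 in the vehicle samples. The lowest oxaliplatin sample stood above the highest vehicle sample. The log2 fold change was 0.83 (SE 0.13, 95% interval 0.54 to 1.11; limma, adjusted p = 0.00203).

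H2-D1 encodes a classical heavy chain, the molecule D that is polymorphic between mouse strains. H2-D1 had 21474, 19198, 23843, 19728 and 22692 normalized counts in the oxaliplatin samples, against 13671, 11155, 12552 and 14547 in the vehicle samples. The groups were again apart, with every oxaliplatin sample above every vehicle sample. On the log2 scale H2-D1 rose by 0.72 (SE 0.12, 95% interval 0.46 to 0.99; limma, adjusted p = 0.00283).

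H2-K1 encodes the other classical heavy chain of this strain. H2-K1 had 5533, 8137, 7774, 5521 and 5804 normalized counts in the oxaliplatin samples, against 4829, 3930, 4109 and 4826 in the vehicle samples. Oxaliplatin 2 and 3 were well above the other oxaliplatin samples, which lay closer to the vehicle samples but did not overlap them. H2-K1 rose by 0.55 on the log2 scale (SE 0.15, 95% interval 0.24 to 0.87; limma, adjusted p = 0.0240). This call was lost without oxaliplatin 3 (adjusted p = 0.0597), without vehicle 2 (0.0822) and without vehicle 3 (0.0782) in limma, and also under quantile normalization (0.0588) and with the erythroid marker score as a covariate (0.0992).

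B2m, H2-D1 and H2-K1 each gave an exact two-sided permutation p of 0.0159, the smallest that 5 against 4 samples allow. It is unadjusted and restates that the groups do not overlap, as was so for 14.9% of all genes tested. H2-K1 and H2-D1 lie at chr17:33996017-34000347 and chr17:35262730-35267499. Of their 50-base windows, 8.79% and 14.3% also occur in other genes, mostly other heavy chains, so reads there may have been assigned between them.

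H2-T23 encodes a nonclassical heavy chain that presents signal peptides of other class I molecules to natural killer cell receptors. H2-T23 had 1873, 1412, 1827, 1730.0 and 1917 normalized counts in the oxaliplatin samples, against 1626, 1322, 1410.5 and 1501 in the vehicle samples. All but oxaliplatin 2 were above the highest vehicle sample. The log2 fold change of 0.25 (SE 0.12, 95% interval 0.0034 to 0.50) did not pass (limma, adjusted p = 0.168; exact permutation p = 0.0476). It passed without oxaliplatin 2 (limma, adjusted p = 0.0498), and 29.8% of its 50-base windows occur in other genes.

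**Figure D2:**
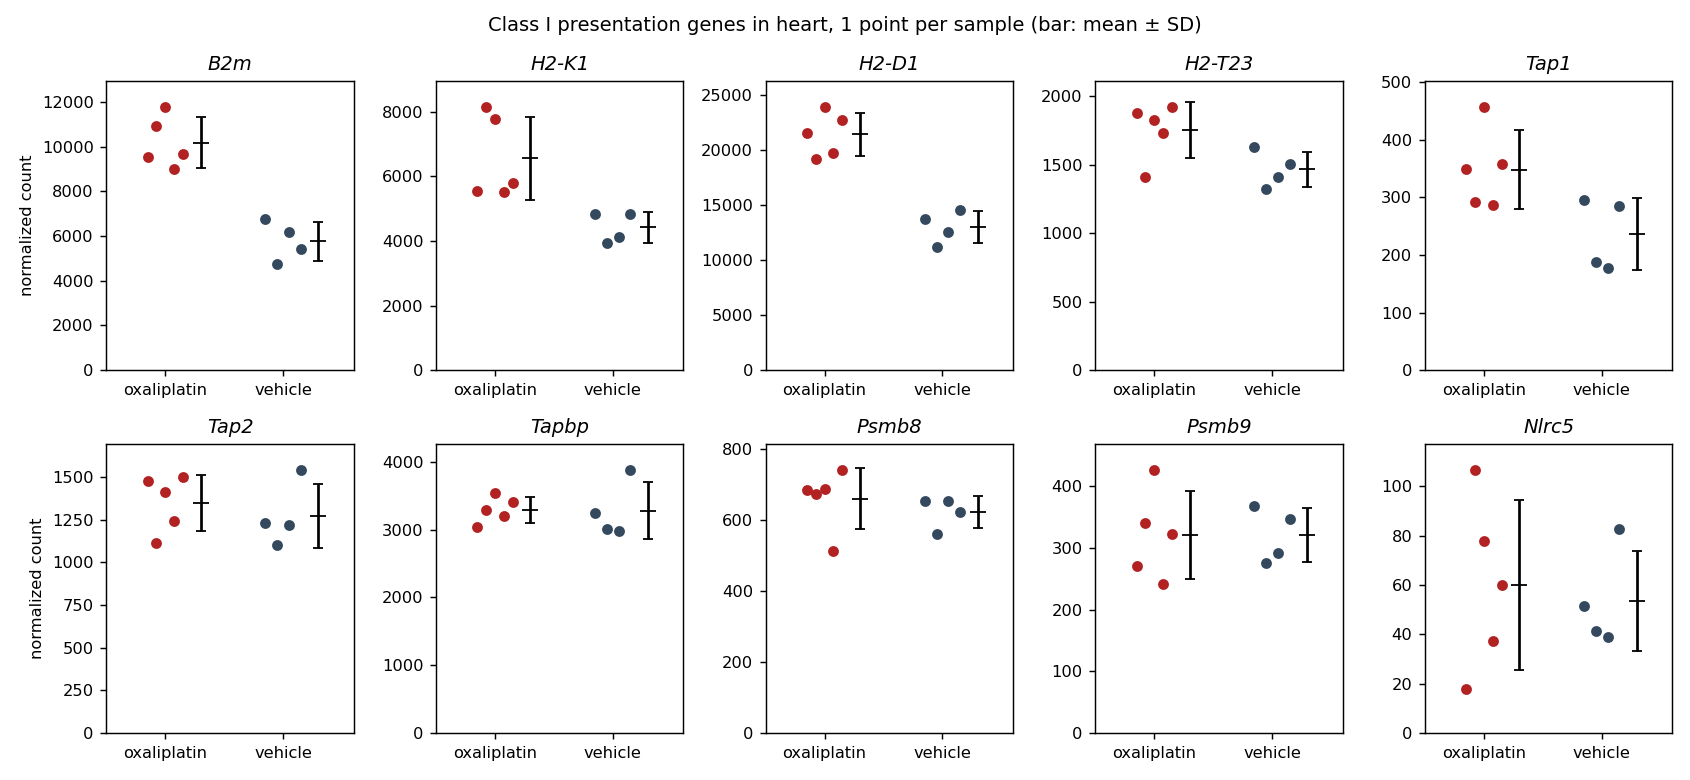
Normalized counts of the 10 genes, 1 panel per gene with its own y axis from 0, 1 point per sample, with oxaliplatin on the left and vehicle on the right, and bars for the mean and SD. The points of B2m, H2-D1 and H2-K1 do not overlap between groups, while those of Tap2, Tapbp, Psmb8, Psmb9 and Nlrc5 do.

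Tap1 and Tap2 encode the subunits of the peptide transporter, which works only as the pair. Tap1 had 348, 292, 456, 286 and 357 normalized counts in the oxaliplatin samples, against 295, 188, 178 and 284 in the vehicle samples. Oxaliplatin 1, 3 and 5 were above all vehicle samples, and oxaliplatin 2 and 4 lay beside the highest vehicle values. Its log2 fold change of 0.57 (SE 0.19, 95% interval 0.15 to 0.99) did not pass (limma, adjusted p = 0.0666; exact permutation p = 0.0635). It passed without oxaliplatin 2 (adjusted p = 0.0499) and without vehicle 1 (0.0488) in limma. Tap1 and Psmb9 overlap at their starts, and 5.61% of Tap1's 50-base windows are shared with Psmb9.

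Tap2 had 1476, 1113, 1414, 1241 and 1499 normalized counts in the oxaliplatin samples, against 1231, 1105, 1219 and 1542 in the vehicle samples. The highest Tap2 value was in a vehicle sample. Its log2 fold change was 0.08 (95% interval -0.19 to 0.36; limma, adjusted p = 0.707), so the interval leaves out a rise of the size seen for B2m. Within a sample, Tap1 over Tap2 was 0.258 ± 0.0381 after oxaliplatin and 0.185 ± 0.0398 with vehicle (SD, n = 5 and 4), which did not pass (exact permutation p = 0.0635, adjusted over 9 ratios 0.0952).

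Tapbp encodes tapasin, which holds empty class I molecules at the transporter. Tapbp had 3042, 3288, 3547, 3199.7 and 3405 normalized counts in the oxaliplatin samples, against 3244, 3012, 2983 and 3882 in the vehicle samples. All oxaliplatin samples lay within the range of the vehicle samples. Its log2 fold change was 0.01 (95% interval -0.22 to 0.25; limma, adjusted p = 0.953). Some of its windows, 21.0%, occur in other gene models, chiefly Gm19412.

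Psmb8 and Psmb9 encode the immunoproteasome subunits LMP7 and LMP2, which replace Psmb5 and Psmb6 in the constitutive particle. Psmb8 had 682, 672, 688, 512 and 739.8 normalized counts in the oxaliplatin samples, against 653, 559.6, 653 and 622 in the vehicle samples. Psmb9 had 271, 340.0, 426, 241 and 323 in the oxaliplatin samples, against 368, 276, 292 and 347 in the vehicle samples. Oxaliplatin 4 was the lowest of all samples for both genes, and the groups overlapped. For Psmb8 the other 4 oxaliplatin samples stood above the highest vehicle sample. Without oxaliplatin 4 the log2 fold change of Psmb8 was 0.16 and did not pass (limma, adjusted p = 0.413). The log2 fold change was 0.07 for Psmb8 (95% interval -0.19 to 0.34; limma, adjusted p = 0.731). For Psmb9 it was -0.02 (95% interval -0.39 to 0.35; limma, adjusted p = 0.955), and its sign turned under several settings.

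Nlrc5 was the lowest and most variable of the 10 genes, with 17.9, 107, 78.0, 37.4 and 60.1 normalized counts in the oxaliplatin samples, against 51.4, 41.3, 38.7 and 82.7 in the vehicle samples. Oxaliplatin samples held both the lowest and the highest value, 5.95-fold apart. The log2 fold change was -0.01 (SE 0.45, 95% interval -0.98 to 0.97; limma, adjusted p = 0.996), an interval wide enough to hold changes in either direction as large as that of B2m, and its sign also turned with the scaling.

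Per kilobase of the longest coding transcript, the 10 genes spanned a wide range of levels. B2m stood at 11831 ± 1312 normalized counts per kb after oxaliplatin and 6705 ± 1020 with vehicle (SD, n = 5 and 4). H2-D1 followed at 10175 ± 930.0 after oxaliplatin and 6176 ± 697 with vehicle, with ranges that overlapped those of B2m in both groups, and H2-K1 at 4048 ± 797 after oxaliplatin and 2732 ± 292 with vehicle. H2-T23 came next at 1190.0 ± 137 after oxaliplatin and 995 ± 88.3 with vehicle, and Tapbp stood at 1137 ± 66.6 after oxaliplatin and 1132 ± 144 with vehicle. The ranges of H2-T23 and Tapbp overlapped each other within both groups. Psmb8 was at 405 ± 52.9 after oxaliplatin and 382 ± 26.9 with vehicle, and Tap2 at 392 ± 48.2 after oxaliplatin and 370.1 ± 54.4 with vehicle. The ranges of Psmb8 and Tap2 also overlapped each other within both groups, and both genes stood below H2-T23 and Tapbp in every sample. Psmb9 came next at 237 ± 52.7 per kb after oxaliplatin and 237 ± 32.5 with vehicle, then Tap1 at 118 ± 23.2 after oxaliplatin and 80.0 ± 21.0 with vehicle. Nlrc5 was last at 7.92 ± 4.56 after oxaliplatin and 7.06 ± 2.66 with vehicle. In bulk tissue, more cells of a type and more RNA per cell cannot be told apart for any of these levels.

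The samples also differed within their group, and the 10 genes shared part of that spread. Against the vehicle mean, oxaliplatin 3 was higher for all 10 genes, from 0.12 for Tapbp to 1.04 for B2m on the log2 scale. Vehicle 2 was below its group's mean for all 10 genes. As a description over 9 samples that share library depth and tissue content, Pearson's r between a gene's deviation from its group mean and the mean of the other members' deviations was 0.93 for Psmb9 and 0.80 for Tapbp, down to 0.33 for Tap2 and 0.16 for H2-T23. The non-member genes of most alike deviation were Nfxl1 (r = 0.94), Atp13a2 (0.93), Ppp6r3 (0.92), Setd5 (0.91), Ckap5 (0.91), Cflar (0.91), Dcaf1 (0.90) and Phka2 (0.90), over 9 samples. Nlrc5, with deviations from -1.46 to 1.05, weighs most in that mean.

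**Figure D3:**
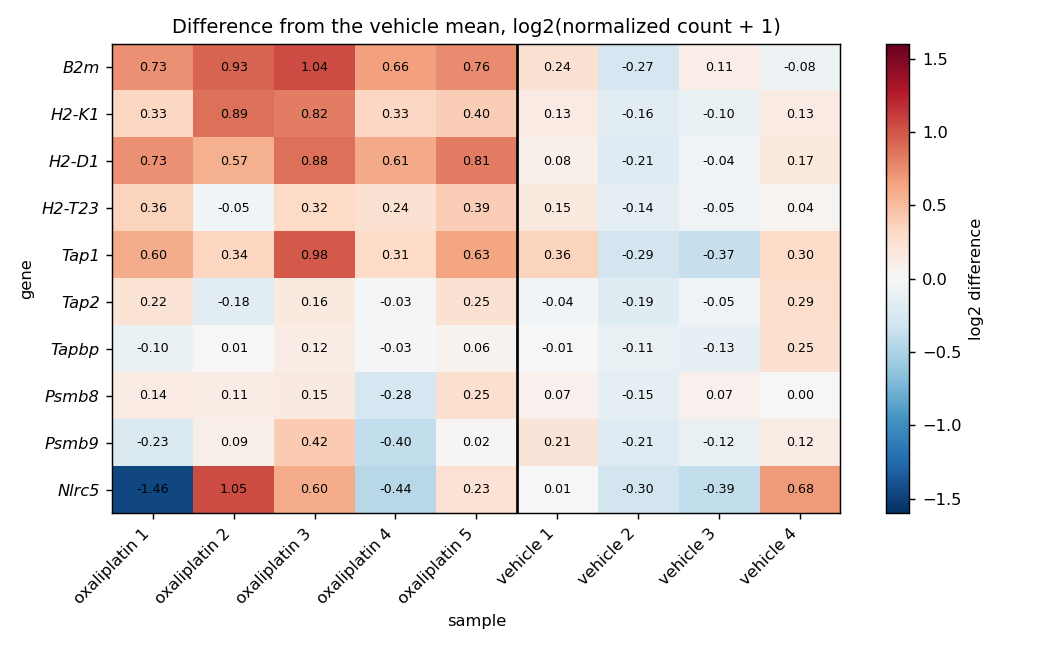
Difference of each sample from the vehicle mean, in log2(normalized count + 1), with the 10 genes down the page and samples across, oxaliplatin on the left of the line and vehicle on the right. B2m, H2-K1 and H2-D1 are above the vehicle mean in all 5 oxaliplatin samples, and Nlrc5 runs from -1.46 to 1.05 among them.

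Other heavy chains that pair with B2m, or are built like class I, were taken from a list of 18 genes, of which 11 were measured. Of these 4 rose, 0 fell and 7 did not pass, with a median log2 fold change of 0.31. Among all genes tested, 9.23% rose and 5.03% fell. H2-M3, which presents formylated peptides, had 343, 316, 315, 289 and 304 normalized counts in the oxaliplatin samples, against 268, 226, 199 and 233 in the vehicle samples. The groups did not overlap, and the log2 fold change was 0.44 (SE 0.13; limma, adjusted p = 0.0397). H2-T22, a ligand of gamma delta T cells, rose by 0.52 (SE 0.13; limma, adjusted p = 0.0163), Hfe, which senses iron through the transferrin receptor, by 0.50 (SE 0.15; adjusted p = 0.0364) and H2-Q6 by 0.73 (SE 0.22; adjusted p = 0.0460) on the log2 scale. In H2-T22, Hfe and H2-Q6 the groups overlapped. H2-Q6 shares 35.0% of its 50-base windows with other genes and H2-T22 44.7%, chiefly H2-T10, so reads may have been split between these paralogs. H2-T10 itself had a log2 fold change of 0.84, short of the threshold (adjusted p = 0.120 in limma).

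Of 12 other genes for peptide trimming and loading, 2 rose, 0 fell and 10 did not pass, with a median log2 fold change of 0.09. Over all genes tested, 9.23% rose and 5.03% fell. Sec61a1, the pore of the endoplasmic reticulum translocon, had 2238, 2835, 2618, 3179 and 2289 normalized counts in the oxaliplatin samples, against 1872, 1624, 1523 and 1483 in the vehicle samples. All oxaliplatin samples were higher, by 0.69 on the log2 scale (SE 0.13; limma, adjusted p = 0.00422). Pdia3, the disulfide isomerase ERp57 of the peptide loading complex, rose by 0.35 (SE 0.10; limma, adjusted p = 0.0316), also without overlap. Sec61a1 and Pdia3 both serve secreted and membrane proteins in general. The chaperones Calr and Canx, at -0.10 and -0.16, and the trimming peptidase Erap1, at 0.18, were among the 10 that did not pass.

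**Figure D4:**
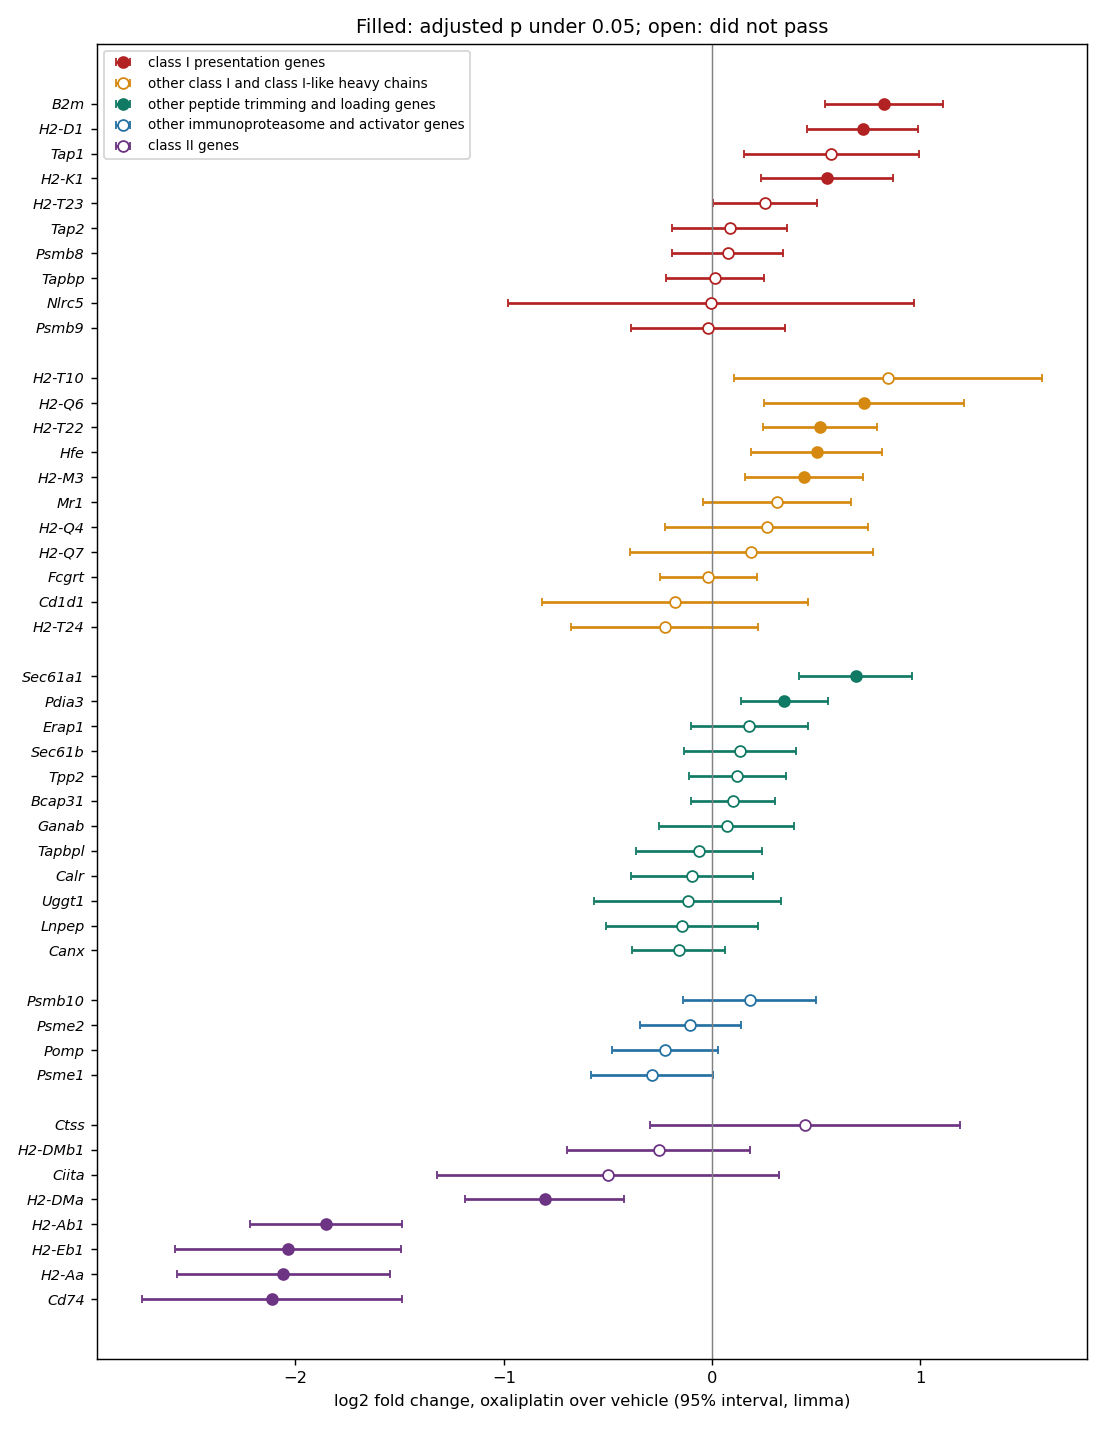
Log2 fold change of oxaliplatin over vehicle with its 95% interval in limma for the 10 genes and for heavy chain, loading, immunoproteasome and class II lists, filled where the adjusted p was under 0.05. B2m, H2-D1 and H2-K1 lie right of 0 and filled, the proteasome genes cross 0, and 5 class II genes lie filled on the left, with Cd74 at -2.11.

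The other immunoproteasome and activator genes, Psmb10, Psme1, Psme2 and Pomp, gave 0 of 4 that passed, with a median log2 fold change of -0.16. At an unadjusted p under 0.05, 0 of the 4 passed in limma. Psme1, a subunit of the PA28 activator, had -0.29 (95% interval -0.58 to 0.0031; limma, adjusted p = 0.178), and Pomp, the assembly factor, -0.22 (adjusted p = 0.230). The 14 constitutive proteasome genes gave 0 that passed, and all 14 had a log2 fold change under 0, with a median of -0.11, such as -0.28 for Psmb5 (limma, adjusted p = 0.237) and -0.26 for Psmb4 (adjusted p = 0.229). Over all genes tested, 47.7% had a log2 fold change above 0. At the same total in every sample, the median of all genes moved from -0.02 to 0.11. The sign of the smaller values among the 14, such as -0.0086 for Psma3, therefore depends on the scaling. At an unadjusted p under 0.05, 0 of the 14 passed in limma.

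Ratios of genes within a sample do not move with the scaling of the sample, and 9 were compared. Psmb10 over Psmb7, the inducible subunit MECL-1 over the one it replaces, was 0.576 ± 0.0581 after oxaliplatin and 0.430 ± 0.0411 with vehicle (SD, n = 5 and 4), with no overlap. The log2 difference of 0.42 passed (exact permutation p = 0.0159, adjusted over 9 ratios 0.0476), whereas neither gene passed alone. That p is the smallest possible, and its adjusted value was under 0.05 only because 3 ratios shared it. The other ratios at that p were B2m and H2-K1 over H2-Ab1, which have the same denominator. Of the windows of Psmb7, 28.1% occur in other genes, chiefly its neighbour Nek6. Psmb8 over Psmb5 was 0.176 ± 0.0348 after oxaliplatin and 0.136 ± 0.0126 with vehicle, which did not pass after adjustment (exact permutation p = 0.0476, adjusted 0.0952). For Psmb5, 57.1% of the windows occur in other genes, chiefly Gm3375. Psmb9 over Psmb6 was 0.0466 ± 0.0134 after oxaliplatin and 0.0422 ± 0.0103 with vehicle (exact permutation p = 0.683, adjusted 0.683). H2-K1 over B2m, H2-D1 over B2m and H2-K1 over H2-D1 had log2 differences of -0.27, -0.10 and -0.17 and did not pass (exact permutation, adjusted p = 0.0952, 0.446 and 0.388). With any 1 sample left out, 0 of the 9 ratios passed, where the smallest exact permutation p that the samples allow is 0.0286 or 0.0357 before adjustment.

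Class II genes were set beside the class I genes, with no test of one list against the other. Of 8 measured class II genes, which serve CD4 T cells and are carried by B cells, dendritic cells and macrophages, 5 fell, 0 rose and 3 did not pass, with a median log2 fold change of -1.33. Among all genes tested, 5.03% fell and 9.23% rose. H2-Ab1, a class II beta chain, had 319, 434, 546, 410 and 329 normalized counts in the oxaliplatin samples, against 1754, 1229, 1264 and 1610 in the vehicle samples. It fell by 1.85 on the log2 scale with no overlap (limma, adjusted p = 0.000461). H2-Aa and H2-Eb1, other class II chains, and Cd74, the invariant chain, had log2 fold changes of -2.06, -2.04 and -2.11 (limma, adjusted p = 0.000839, 0.000856 and 0.00159). Within a sample, B2m over H2-Ab1 was 25.6 ± 3.95 after oxaliplatin and 3.99 ± 0.634 with vehicle, and H2-K1 over H2-Ab1 was 16.3 ± 2.29 after oxaliplatin and 3.05 ± 0.226 with vehicle (SD, n = 5 and 4). Both ratios passed (exact permutation p = 0.0159, adjusted 0.0476), and most of each log2 difference, 2.68 and 2.41, came from H2-Ab1.

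**Figure D5:**
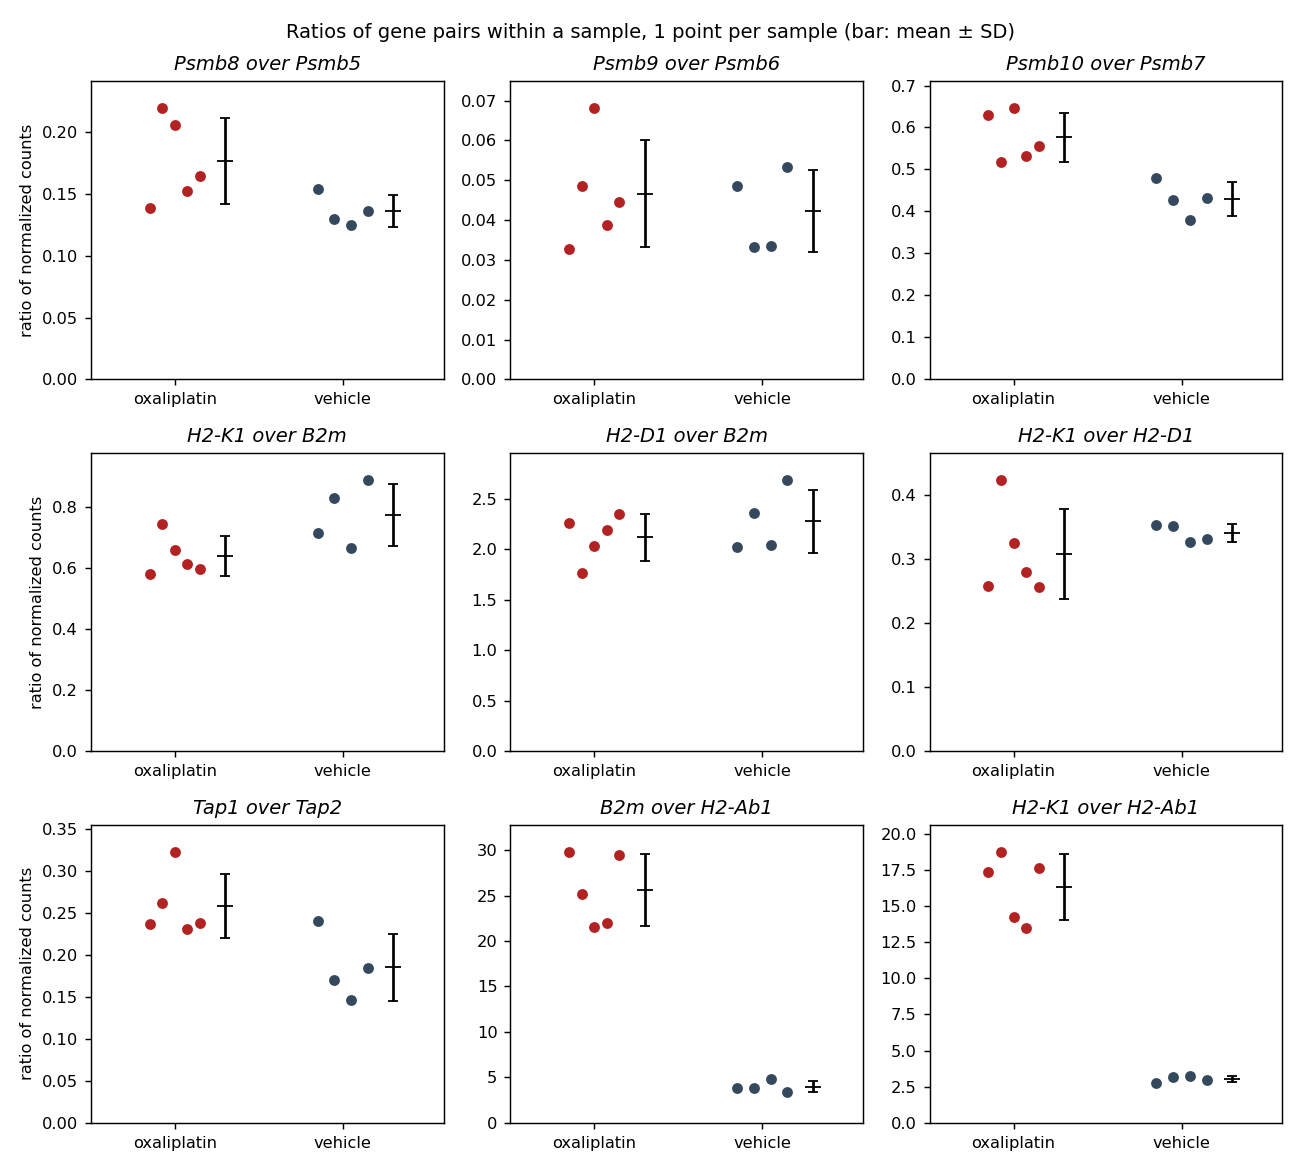
Ratios of normalized counts of 9 gene pairs within a sample, 1 panel per pair with its y axis from 0, 1 point per sample, oxaliplatin on the left, with the mean and SD. Psmb10 over Psmb7, B2m over H2-Ab1 and H2-K1 over H2-Ab1 do not overlap between groups.

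Interferon induces class I genes in many tissues, and its own signalling genes were given as a list of 25, of which 24 were measured. Of these 2 rose, 1 fell and 21 did not pass, with a median log2 fold change of 0.14. That is near the share over all genes tested, of which 9.23% rose and 5.03% fell. Ifngr1, the ligand-binding chain of the interferon gamma receptor, had 4161, 2589, 3752, 4014 and 3985 normalized counts in the oxaliplatin samples, against 2095, 2041, 1919 and 1948 in the vehicle samples. All oxaliplatin samples were higher, oxaliplatin 2 least so, and the log2 fold change was 0.87 (SE 0.14; limma, adjusted p = 0.00196). Ifngr2, the other chain of that receptor, fell by 0.71 (SE 0.19; limma, adjusted p = 0.0241), so the chains moved in opposite directions. Stat3, a transcription factor of the cytokine response, rose by 0.55 (SE 0.12; limma, adjusted p = 0.0103). Named for their role, Irf1 and Irf9 had log2 fold changes of -0.13 and 0.31, and the X and Y box factors Rfx5, Rfxap, Rfxank, Nfya, Nfyb and Nfyc had -0.62, -0.41, 0.15, -0.12, 0.31 and 0.13, and 0 of these 8 passed. Rfx5 was lower in every oxaliplatin sample than in any vehicle sample (limma, adjusted p = 0.0711), as were 5.93% of all genes tested.

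Of 32 measured interferon-induced genes of a list of 33, 9 rose, 0 fell and 23 did not pass, with a median log2 fold change of 0.41. Among all genes tested, 9.23% rose and 5.03% fell. Irf7, the factor that amplifies type I interferon, had 1324, 647, 1838, 992 and 2104 normalized counts in the oxaliplatin samples, against 408, 326, 519.5 and 571 in the vehicle samples. The groups were apart but the oxaliplatin samples spread widely, and the log2 fold change was 1.51 (SE 0.33; limma, adjusted p = 0.0148). Ifi27, Xaf1 and the immunity-related GTPase Irgm1 rose by 0.79, 0.72 and 0.54 on the log2 scale (limma, adjusted p = 0.000839, 0.00778 and 0.00638). The class I genes Tap1, Psmb8 and Psmb9, also interferon-inducible, did not pass.

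Markers of other cell types also differed between the groups. Beside the counts that follow, 9.23% of all genes tested rose and 5.03% fell, and 47.7% had a log2 fold change above 0. All 12 blood endothelial markers were measured and higher, 5 passed, and their summed level was 48462 to 105694 normalized counts after oxaliplatin and 38801 to 47759 with vehicle. No marker was at 0 in all samples. A fit with the endothelial score as a covariate was added once the values were known. In it H2-K1 kept its call at 1.03 (limma, adjusted p = 0.0486), while B2m, at 0.98, and H2-D1, at 0.54, lost theirs (adjusted p = 0.0616 and 0.204). The score did not overlap between groups, so that fit has little to separate them by. Leukocyte markers summed to 1825 to 4208 after oxaliplatin and 1866 to 2820.5 with vehicle, and 1 of 7 rose and 1 fell. B cell markers summed to 55.0 to 225 after oxaliplatin and 342 to 748 with vehicle, with all 5 lower, of which 4 passed. The 3 of 16 T and natural killer cell markers that were measured summed to 72.9 to 289.8 after oxaliplatin and 73.7 to 190.0 with vehicle, with 0 of 3 passed. Macrophage markers summed to 3957 to 8795 after oxaliplatin and 4658 to 6338 with vehicle, with 5 of 12 higher and 7 lower, of which 2 passed in each direction. Fibroblast markers summed to 73449 to 165149 after oxaliplatin and 75956 to 110326 with vehicle, with 9 of 10 higher, of which 1 passed. Beyond these covariate fits, the part of these cells in the class I values was not tested.

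As for the whole series, all 12 cardiomyocyte markers were detected and summed to 1342080 to 1854200 after oxaliplatin and 1738400 to 2144140 with vehicle, and all 12 had log2 fold changes below 0, of which 3 passed. Among all genes tested, 5.03% passed as lower. The 8 atrial markers summed to 29091 to 852860 after oxaliplatin and 13583 to 392705 with vehicle, highest in oxaliplatin 2 and 4 and vehicle 1, so atrial RNA was uneven between samples. Without those 3 samples, B2m and H2-D1 kept their calls and H2-K1 did not (limma, adjusted p = 0.0558), while Tap1 passed (0.0238). The 9 erythroid markers measured of 10 summed to 11084 to 361691 after oxaliplatin and 225432 to 575174 with vehicle. Each sample had 29.4 M to 36.9 M normalized counts, an estimated 28.5 M to 36.2 M reads, and H2-K1 rested on at least 3518 estimated reads per sample, whereas Nlrc5 rested on an estimated 15 to 121 reads.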

How the data were processed

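Values are the signal that the authors deposited for every gene, which per the file headers are normalized counts. The submitters' processing notes list STAR 2.5.1a, Partek and DESeq2, with no roles. The build, annotation and strandedness of the counting were not given in the sources used here. Depth was estimated from the steps of low values. Only 73.0% to 75.9% of the values from 1 to 1000 estimated reads were whole to within 0.02, so no count model was fitted.

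Titles gave the groups. The test was limma 3.58.1 (R 4.3.3) on log2(normalized count + 1), its moderation set to trend and robust. This scale understates the change of low genes. Genes with a mean of at least 10 entered, tests were two-sided, and Benjamini-Hochberg adjusted p under 0.05 over all 13788 genes passed. The limma script was tested on simulated data. Ratios and single genes were compared by exact permutation over samples. Lengths, positions and shared windows came from GENCODE M21, and promoters from RefSeq. Named were the 10 genes, the genes of the 9 ratios, up to 4 genes of smallest p that passed in each list (2 where none did), and the 8 genes of most alike deviation. A few other genes were named for their role, for their sequence or as examples. The 10 genes and all lists were chosen with earlier results of these data known. Alternatives covered pseudocounts, filters, scalings, moderation, sample weights, marker scores as covariates, a replicate block and left-out samples. A list sum adds its genes' normalized counts in a sample.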

Additional observations from a re-analysis of the deposited data

Results flagged for a closer look

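Of 86 groups of samples examined for a sample far from the others, 2 held one, and chance gives about 1 in 20. Ifngr1 had 2589 normalized counts in oxaliplatin 2, against 3752 to 4161 in the other 4 oxaliplatin samples, and this sample was still above all vehicle samples. Irgm1 had 577 normalized counts in vehicle 4, against 675 to 680.3 in the other 3 vehicle samples.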

How the results depend on the processing

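B2m and H2-D1 kept direction and call in 22 of 23 alternatives and H2-K1 in 15 of 23, and all 3 kept their direction in every one. Genes passing numbered 3541 with array weights, 1051 with the erythroid score as a covariate and 214 with the endothelial score, against 1966. With 1 sample left out they ran from 1110 (without vehicle 3) to 2388, with 1237 without vehicle 2 and 1301 without oxaliplatin 4. Of the 10 class I genes, 5 passed with array weights, 1 with the endothelial score and 2 to 5 with 1 sample left out, 5 without oxaliplatin 2. Samples of equal number did not deviate from their group means alike throughout (r from -0.27 to 0.25). So few correlations cannot settle whether the design was paired. The replicate block gave 1413 genes and 2 of the 10, with H2-K1 at adjusted p = 0.0558 in limma. Ratios that passed numbered 0 with the replicate block, 0 without oxaliplatin 2, oxaliplatin 4 and vehicle 1 and 0 with any 1 sample left out, designs whose smallest exact permutation p is 0.125, 0.1 and 0.0286. H2-K1 also missed the threshold without trend and robust moderation (adjusted p = 0.0504 in limma). Tap1 passed with array weights (0.0144) and with the leukocyte score (0.0328), and H2-T23 with array weights (0.0481).

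Signs turned only for genes and ratios that had not passed. With the endothelial score, H2-T23 was -0.10, Tap2 -0.31, Psmb8 -0.029, Psmb9 0.17 and Nlrc5 1.49 on the log2 scale. Psmb9 was 0.11 at the same total, 0.10 with array weights, 0.18 with the erythroid score, 0.032 with the leukocyte score and 0.14 without the 3 atrial-high samples. Nlrc5 was 0.024 with a pseudocount of 10, 0.13 at the same total, 0.33 with array weights, 0.12 with the erythroid score and 0.16 with the leukocyte score. With 1 sample left out, Psmb9 ran from -0.13 to 0.075, Nlrc5 from -0.27 to 0.36, Tapbp from -0.030 to 0.10 and the log2 difference of Psmb9 over Psmb6 from -0.017 to 0.25. The cause of these changes was not tested. Nlrc5 gave no value with a minimum mean of 100. Among the 10 genes, depth limits Nlrc5 most, at 15 estimated reads in its lowest sample.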
